A study of Mus musculus with 2 samples.

Results

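CXC chemokines were compared between splenic dendritic cells (DCs) kept with IL-27 or with vehicle. The members were Cxcl9, Cxcl10 and Cxcl11 (ligands of CXCR3), Cxcl1, Cxcl2, Cxcl3 and Cxcl5 (ligands of CXCR2), Cxcl13 (the ligand of CXCR5) and Cxcl16 (the ligand of CXCR6). They were taken by gene symbol and make up 9 of the 19935 genes with a single-gene probe set, and each had 1 such probe set. Both samples were wild-type C57BL/6 cells from mice aged 8 weeks, sorted from spleen by flow cytometry, and the labels set them apart by treatment: vehicle (also labelled medium) or IL-27, a cytokine of the IL-12 family. The treatment time is labelled "ON", and the dose, the number of mice and the number of cultures are not stated in the labels. Each condition was read on 1 array, so nothing below has been checked against replicates, and the values carry no error and no test.

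CXC chemokines are small secreted proteins that bind G protein-coupled receptors on leukocytes and steer their migration. CXCL9, CXCL10 and CXCL11 are induced by interferons and attract activated T cells and NK cells, whereas CXCL1, CXCL2, CXCL3 and CXCL5 are induced by NF-kB-activating signals and attract neutrophils. CXCL13 guides B cells into follicles. CXCL16 is made as a transmembrane protein on antigen-presenting cells, where it also acts as a scavenger receptor, and is shed by the protease ADAM10.

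The deposited values were linear intensities per probe set. Differences are log2 values of IL-27 over vehicle. A gene was called higher or lower by size, when this difference reached 1 in either direction (2-fold) and the brighter of its values reached 96.2, the median of all probe set intensities. The 95th percentile of 1027 olfactory receptor genes, not expected in DCs, was 77.3 under vehicle and 129 under IL-27 and is called the olfactory limit. All 10 pan-DC markers were over that level minimum, 4 of them lower and 0 higher on the IL-27 array. The lower ones were Kmo (1243 with vehicle and 253 with IL-27), Ciita (1383 and 435), Dpp4 (1718 and 804) and Flt3 (1796 and 851). Among the others, the class II chain H2-Aa had 7080 and 7697, and Itgax, which encodes CD11c, had 3371 and 1829. Of 16 macrophage and monocyte markers measured, 15 were over the level minimum, and 11 were lower and 0 higher. Their summed intensity was 36951 with vehicle and 15252 with IL-27. Only Ccr2 of these markers lay under the olfactory limit on both arrays. Over all 11140 genes past the level minimum, 13.2% were lower and 1.52% higher. Among the pan-DC markers and the macrophage and monocyte markers past it, 40% and 73.3% were lower. In these bulk samples fewer cells of a type and less RNA per cell cannot be told apart.

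Of the 9 CXC chemokines, 1 was higher on the IL-27 array (Cxcl11) and 2 were lower (Cxcl2 and Cxcl13). Over all genes the same rule called 0.848% higher and 7.36% lower. Differences on these arrays depended on level, and with this level trend removed (a lowess curve of the difference on mean log2 intensity over all probe sets) Cxcl11 stayed higher, while Cxcl2 and Cxcl13 were short of 2-fold. Of the remaining 6 members, Cxcl9, Cxcl10, Cxcl1 and Cxcl16 lay over the olfactory limit on both arrays and differed by less than 2-fold, and Cxcl3 and Cxcl5 lay under it on both. The median difference over the 9 members was 0.13, and over all genes 0.04. With the level trend removed these medians were 0.02 and -0.02. As deposited, 5 members had a difference above 0 and 4 below it, of which Cxcl10 turned positive with the trend removed.

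**Figure D1:**
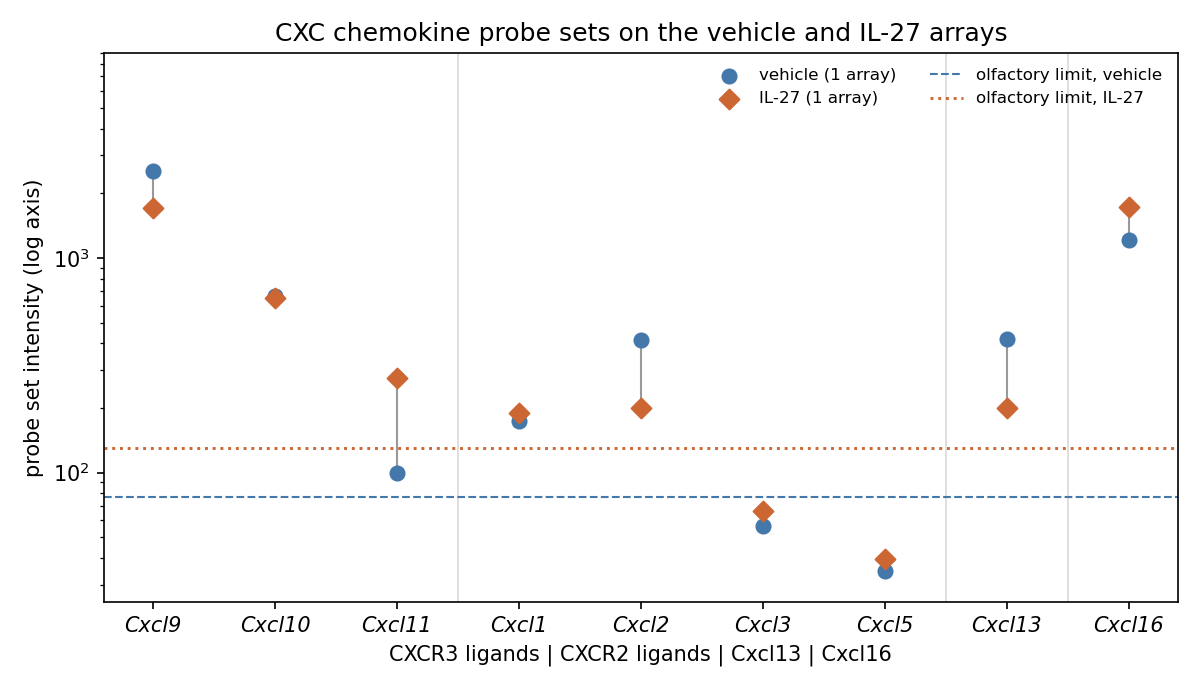
Probe set intensity (log axis) of each CXC chemokine on the vehicle array (circles) and the IL-27 array (diamonds), 1 array each, with the olfactory limit of each array as a horizontal line. Cxcl11 is higher with IL-27, Cxcl2 and Cxcl13 are lower, and Cxcl3 and Cxcl5 lie under both limits; heights of different probe sets are not comparable.

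Among the CXCR3 ligands, Cxcl11 was the member past the size rule. Cxcl11 (probe set 10531420) read 99.7 under vehicle and 276 under IL-27, a log2 difference of 1.47, or 2.77-fold. Its vehicle value was 1.29 times the olfactory limit of that array, so the lower of both values stood close to that of genes not expected in these cells. Its IL-27 value was 2.13 times the limit of that array. The olfactory receptor genes themselves had a median difference of 0.46 and a highest difference of 1.57. Of the 161 of them over the level minimum, 27 were called higher (16.8%), and 16 with the level trend removed. Dim genes not expected here thus reached differences of this size. Of all 19935 genes, 0.216% had a difference at least as high. The RefSeq annotation of the C57BL/6J genome lists Cxcl11 as a transcribed pseudogene, and 8 of the 9 members as protein-coding. C57BL/6 mice are known to carry a frameshift in this gene that leaves them without the chemokine, so the probe set reads a transcript and says nothing of a protein.

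Cxcl9 and Cxcl10 did not move with Cxcl11. Cxcl9 (probe set 10531407), known as a target of interferon-gamma, read 2540 under vehicle and 1704 under IL-27. Its log2 difference of -0.58 corresponds to a 1.49-fold lower value, and 19.7% of all genes were at least as low. Cxcl10 (probe set 10531415), which responds to both types of interferon, had 667 and 649, a log2 difference of -0.04. The sign of the Cxcl10 difference depended on the scaling of the arrays: it was 0.24 after quantile normalization and 0.32 with the level-dependent trend removed. The median over Cxcl9, Cxcl10 and Cxcl11 was -0.04, which is the value of Cxcl10, and it changed sign with it.

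The 3 CXCR3 ligands are neighbours on chromosome 5 in RefSeq (assembly GRCm38.p6), with Art3 between Cxcl9 and Cxcl10. Of the protein-coding genes around them, Naaa, a lysosomal amidase, was lower, at 3190 with vehicle and 1135 with IL-27, and Sdad1 was lower, at 253 and 107, the second value being under the olfactory limit. With the level trend removed these genes differed by -1.31 and -0.99. Art3 lay under the olfactory limit on both arrays. Nup54, a nuclear pore gene on the far side of Cxcl11, had 342 and 340. A 2-fold higher value was thus seen in neither Cxcl10 nor Nup54, the genes on either side of it.

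The upstream sequences of the members were searched because interferon and NF-kB are known to act on these genes close to their start. RefSeq promoter windows were found for 6 of the 9 members (Cxcl1, Cxcl2, Cxcl3, Cxcl9, Cxcl10 and Cxcl13), and the 250 bases before the start were searched on both strands. The letters GAAANNGAAA, the core of the interferon-stimulated response element (ISRE), occurred in Cxcl10 and in 2.98% of all 32851 promoter windows. The letters GGGNNNTTCC, a form of the NF-kB site, occurred in Cxcl1, Cxcl2, Cxcl3 and Cxcl10 and in 4.65% of all windows. TTCNNNGAA, the STAT site named GAS, occurred in none of the 6 and in 7.02% of all windows. Matches to the ISRE and NF-kB letters did not overlap each other. The Cxcl10 stretch is shown because it holds both kinds of match, in capitals: the ISRE letters first, then a pair of NF-kB matches. It covers bases 240 to 91 before the start (GRCm38.p6, chr5:92348980-92349129, minus strand).
Cxcl10: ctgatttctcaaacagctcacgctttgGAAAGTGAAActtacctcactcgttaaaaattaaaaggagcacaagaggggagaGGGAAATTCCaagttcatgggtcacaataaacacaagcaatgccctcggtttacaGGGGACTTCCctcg
Cxcl9 had no match to any of the 3 patterns in its window. A match is a run of letters, not a measured binding site.

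Among the CXCR2 ligands, Cxcl2 was lower and Cxcl1 was not. Cxcl2 (probe set 10523156), known as MIP-2 and a main neutrophil attractant of mouse myeloid cells, read 416 under vehicle and 200.04 under IL-27, a log2 difference of -1.06, or 2.08-fold lower. Of all genes, 6.37% were at least as low, so a difference of this size was common on these arrays. With the level trend removed it was -0.62, short of 2-fold. Cxcl1 (probe set 10523151), known as KC, had 173 and 189, a log2 difference of 0.13 as deposited and 0.43 with the trend removed. Cxcl3 (56.5 and 66.5) and Cxcl5 (34.6 and 39.6) lay under the olfactory limit on both arrays, so no level of either could be told from genes not expected here. The median over these 4 genes was 0.16 and their mean -0.13, since Cxcl2 was the one below 0.

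Cxcl1, Cxcl2 and Cxcl3 lie close together on chromosome 5, in a row with Cxcl5, Ppbp, Pf4 and Cxcl15. Of these last 3 chemokine genes, Pf4 and Cxcl15 lay under the olfactory limit on both arrays, and Ppbp had 90.5 with vehicle and 91.5, under the limit, with IL-27. Cxcl2 differed by -1.06 (-0.62 with the trend removed) and Cxcl1 by 0.13 (0.43), while Cxcl3 lay under the olfactory limit on both arrays. The promoters of Cxcl1, Cxcl2 and Cxcl3 are shown because they share the same NF-kB letters, GGGAATTTCC, whose part in these differences was not tested. Each is the plus strand from base 110 to base 31 before the start, at chr5:90891135-90891214 for Cxcl1, chr5:90903789-90903868 for Cxcl2 and chr5:90785991-90786070 for Cxcl3 (GRCm38.p6). Capitals mark GGGNNNTTCC on either strand, and where matches on both strands overlap they form 1 run, which leaves 2 separate runs in each promoter.
Cxcl1: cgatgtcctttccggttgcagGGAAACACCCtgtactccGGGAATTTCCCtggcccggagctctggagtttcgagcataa
Cxcl2: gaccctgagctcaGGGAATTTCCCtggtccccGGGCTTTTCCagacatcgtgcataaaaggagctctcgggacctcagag
Cxcl3: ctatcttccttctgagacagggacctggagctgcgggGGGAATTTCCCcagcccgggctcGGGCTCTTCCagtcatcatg
The run GGGAATTTCCC is in all 3 promoters and reads as a match on both strands.

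Cxcl13 was lower and Cxcl16 was brighter without reaching 2-fold. Cxcl13 (probe set 10523359) read 420 under vehicle and 201 under IL-27, a log2 difference of -1.06, or 2.09-fold lower, and -0.63 with the level trend removed. Of all genes, 6.26% were at least as low. Its promoter window held none of the searched letters and is shown as the other lower member, from base 110 to base 31 before the start on the plus strand (GRCm38.p6, chr5:95956829-95956908).
Cxcl13: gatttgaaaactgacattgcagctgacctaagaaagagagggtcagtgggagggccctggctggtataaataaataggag
In spleen CXCL13 is known as a product of follicular stromal cells and of some myeloid cells. Of 11 stromal, follicular DC and endothelial markers measured, 1 was lower (Pecam1) and 0 higher, with summed intensities of 1928 and 1787. With 10 over the level minimum that was 10%, near the 13.2% of all genes over it. Without Pecam1, the 1 called marker, the summed intensities were 1383 and 1634. With the level trend removed, 7 of the 11 lay above 0, with a median of 0.34, and Ccl19 was higher, at 1.15. Several of these markers were dim: Col3a1, Pdgfrb, Cdh5 and Kdr lay under the olfactory limit on the IL-27 array. Olfactory receptor genes had a median difference of 0.46 as deposited and 0.26 with the trend removed, where 939 of 1027 lay above 0. B cell markers, all 7 over the level minimum, had 2 lower (28.6%, beside 13.2% of all genes over it), with sums of 2045 and 1258. The macrophage and monocyte markers and 4 of the 10 pan-DC markers were lower alongside Cxcl13 and Cxcl2, as given above. The part of any of these cell types in these differences was not tested.

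Cxcl16 (probe set 10387890) read 1214 under vehicle and 1722 under IL-27, a log2 difference of 0.50, or 1.42-fold. The difference was positive under every scaling tried, from 0.41 with median centring to 0.82 with centring on the 75th percentile, and 8.03% of all genes were at least as high as deposited. Its RefSeq neighbours on chromosome 11, Med11 and Zmynd15, differed by -0.30 and 0.21 as deposited and by 0.14 and 0.63 with the level trend removed, where Cxcl16 had 0.73. Cxcl16 was the member with the second highest difference after Cxcl11.

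**Figure D2:**
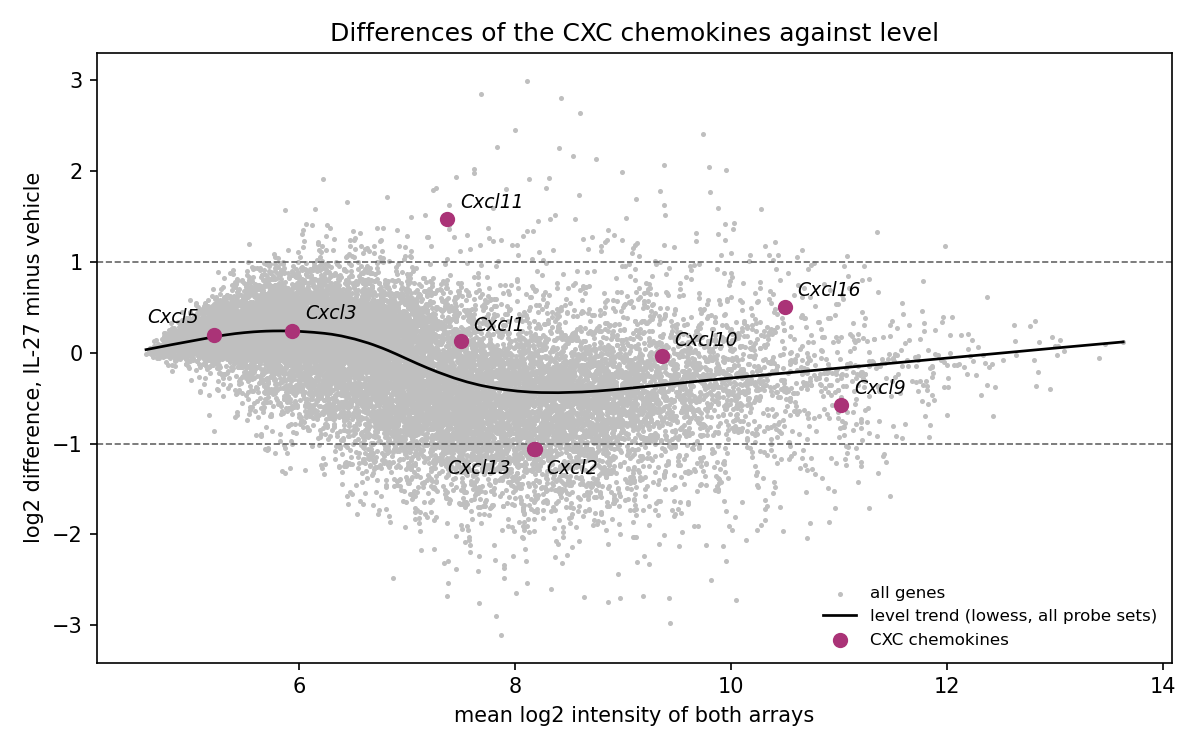
Log2 difference (IL-27 minus vehicle) against mean log2 intensity for all 19935 genes (grey) and the 9 CXC chemokines (coloured), with the level trend as a line and dashed lines at a 2-fold difference. Cxcl11 stands above the trend, and Cxcl2 and Cxcl13 lie almost on one point, below it.

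The level trend differed between the members. At the level of Cxcl2 and Cxcl13 the fitted trend was -0.44, at that of Cxcl1 -0.30, at that of Cxcl10 -0.36 and at that of Cxcl3 0.24. With this trend removed 1 member was higher and 0 were lower, where all genes had 1.34% higher and 3.7% lower. The members' counts were the same after quantile normalization (1.17% of all genes higher and 4.55% lower) and after centring on the 75th percentile (2.22% and 3.09%). After median centring 1 was higher and 2 were lower, as deposited, against 0.667% and 9.37% of all genes. With the level trend removed, Cxcl11 had 1.72, and again 0.216% of all genes were at least as high. On the same scale Cxcl16 had 0.73, Cxcl1 0.43, Cxcl10 0.32, Cxcl9 -0.41 and Cxcl5 0.02.

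**Figure D3:**
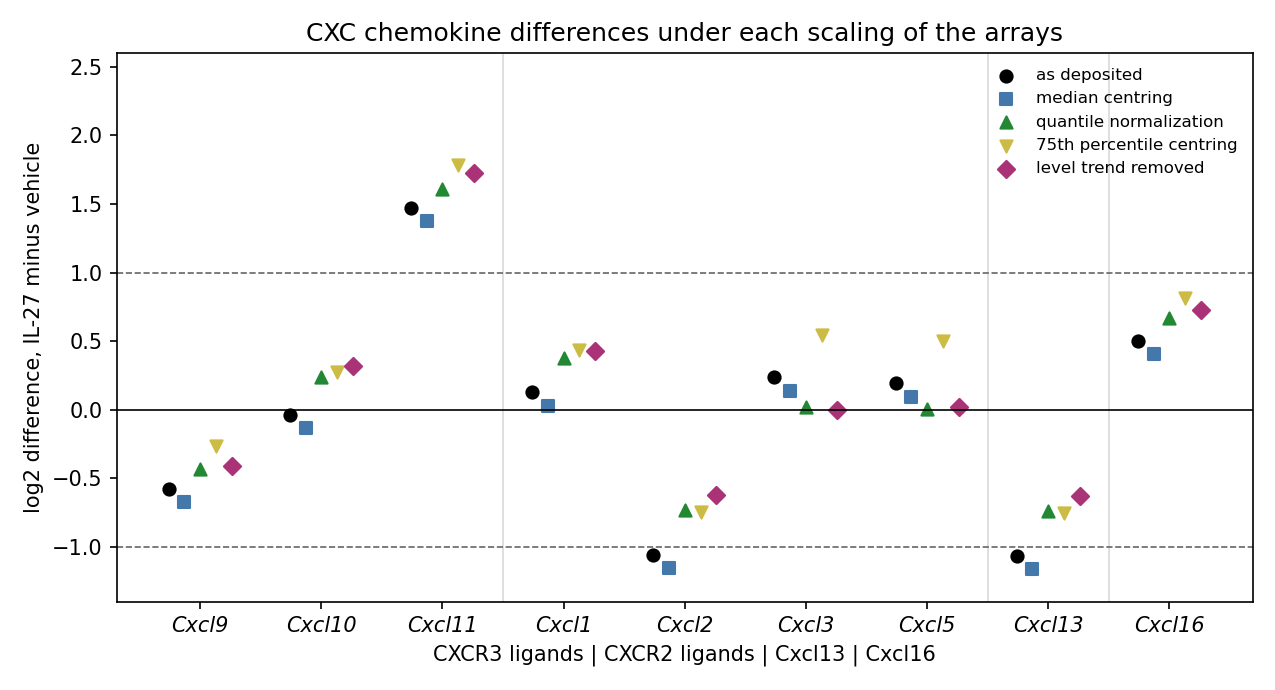
Log2 difference (IL-27 minus vehicle) of each CXC chemokine as deposited and under 4 other scalings of the arrays, with dashed lines at a 2-fold difference. Cxcl11 stays above 1 under all 5, Cxcl2 and Cxcl13 pass -1 under 2 of them, and Cxcl10 changes sign.

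The genes nearest to each called member in the plane of both log2 intensities were found over the 2 arrays. Scin, Krtap5-2 and Mmp19 were nearest to Cxcl11, at distances of 0.11, 0.17 and 0.28 on the log2 scale. Coq10a, Cxcl13 and Tsc2 were nearest to Cxcl2, and Coq10a, Cxcl2 and Tmem106b to Cxcl13, all within 0.019. Spacing was thus closer around Cxcl2 and Cxcl13 than around Cxcl11. Nearness over 2 arrays describes similar values, and shared regulation was not tested.

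Receptors for these chemokines were mostly dim. Of 8 measured, 5 lay under the olfactory limit on both arrays, among them Cxcr5, Cxcr6 and the scavenging receptor Ackr3. Cxcr3 read 247 under vehicle and 153 under IL-27, a log2 difference of -0.69. Cxcr2, the neutrophil receptor, was lower by the size rule (117 and 55.4), but its vehicle value was below the olfactory limit of the IL-27 array, so no fold is given. Of the neutrophil markers measured, 8 of 12 lay under the limit on both arrays, including S100a8 and Ly6g. S100a9 was over it on both, at 79.4 with vehicle and 137 with IL-27. Csf3r had 275 with vehicle and 81.5, under the limit, with IL-27, or at least 2.12-fold lower. Among 8 other CXC, CX3C and XC chemokines, 0 were higher and 0 lower, and Cxcl12, the ligand of CXCR4, lay under the limit on both arrays.

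Interferon genes, their receptors and the JAK and IRF genes downstream are known to drive the CXCR3 ligands in many cells. Of 16 measured members, 6 differed by more than 0 and 10 by less, and 2 were lower and 0 higher by the size rule, out of 14 over the level minimum. Among all 11140 genes over that minimum, 13.2% were lower and 1.52% higher, so 2 of 14 was close to the share of all genes. The median difference was -0.30, or -0.01 with the level trend removed. Irf7, a transcription factor of the type I interferon response, had 880.3 with vehicle and 329 with IL-27, or 2.67-fold lower, and Tyk2, a receptor-bound kinase, was 2.16-fold lower (-0.68 with the trend removed). Irf1, a direct activator of Cxcl9 and Cxcl10, had 858 and 941. Its other probe set had 108 and 111. Ifng and Ifnb1 lay under the olfactory limit on both arrays.

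Of 13 interferon-induced genes measured beside the CXCR3 ligands, 5 were lower and 1 was higher. With 12 over the level minimum that was 41.7% and 8.33%, where 13.2% of all genes were lower and 1.52% higher. The median of the 13 was -0.79, or -0.58 with the trend removed, beside -0.34 and -0.08 for all genes over the minimum. Usp18, a deubiquitinase-family brake on interferon signalling, was 3.11-fold lower, and Ifit3, an antiviral protein that binds other IFIT members, 3.64-fold. The IL-27 value of Ifit3 was 1.06 times the olfactory limit of that array, close to genes not expected in these cells. Gbp3, a GTPase, was at least 2.16-fold lower, Mx1 at least 2.35-fold (log2 difference -0.96 with the trend removed) and Ifit2 at least 1.78-fold, each taken against the olfactory limit of the IL-27 array. Oasl1, a regulator of Irf7 translation, was the higher one, at 227 and 626, or 2.76-fold. Cxcl11 and Oasl1 were therefore the 2 genes above 2-fold among the CXCR3 ligands and these interferon-induced genes. Macrophage and monocyte markers and 4 of the 10 pan-DC markers were lower alongside, and their part was not tested.

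Of 13 measured genes of the TNF, IL-1, TLR and NF-kB route, which drives the CXCR2 ligands, 2 were lower and 0 higher. All 13 were over the level minimum, where 13.2% of all genes were lower and 1.52% higher. The 2 of 13 (15.4%) was thus close to the share of all genes. The median of the 13 was -0.54, or -0.29 with the trend removed, beside -0.34 and -0.08 for all genes over the minimum. Nfkbiz, a nuclear cofactor of NF-kB, had 963 with vehicle and 443 with IL-27, or 2.18-fold lower, and -0.77 on the log2 scale with the trend removed. Tlr4, the receptor for lipopolysaccharide, was at least 1.69-fold lower, from 219 with vehicle to 60.2, under the limit, with IL-27. Il1b had 3445 and 2044 (-0.75) and Tnf 466 and 784 (0.75). With the trend removed Tnf was higher, at 1.12. Nfkbia, a feedback inhibitor, differed by -0.21. Macrophage and monocyte markers (11 of 16) and pan-DC markers (4 of 10) were lower alongside, and their part was not tested.

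Lymphotoxin and the non-canonical NF-kB pathway are known to drive Cxcl13 in stroma. Of 7 measured genes, 1 was lower and 0 higher as deposited. With 6 over the level minimum that was 16.7%, close to the 13.2% of all genes over it. The median of the 7, -0.10, turned to 0.10 with the trend removed. Ltb, the membrane anchor of lymphotoxin, had 294 with vehicle and 131 with IL-27, or 2.25-fold lower, and -0.83 with the trend removed. Its IL-27 value was 1.01 times the olfactory limit of that array, close to genes not expected in these cells. Map3k14, which encodes the kinase NIK, had 472 and 764, and its difference of 0.70 became 1.07 with the trend removed.

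Of 9 genes that process these chemokines, 4 were lower and 0 higher. That was 57.1% of the 7 over the level minimum, where 13.2% of all genes were lower. The median of the 9 was -0.71, or -0.66 with the trend removed. Adam10, the sheddase of CXCL16, read 503 under vehicle and 235 under IL-27, or 2.14-fold lower, and Adam17, a related protease, had 837 and 716. Dpp4, which trims and inactivates CXCR3 ligands, was 2.14-fold lower, and Anpep, another peptidase of the cell surface, 2.23-fold. Mmp9, a gelatinase, was at least 1.24-fold lower. With the level trend removed, 1 of the 4 (Mmp9, at -1.33) stayed past the size rule, and Adam10, Dpp4 and Anpep had -0.66, -0.84 and -0.95. The differences of Cxcl16 and of Adam10 thus had opposite signs. Macrophage and monocyte markers were lower alongside this list too, as were 4 of the 10 pan-DC markers, of which Dpp4 is 1. Their part was not tested.

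**Figure D4:**
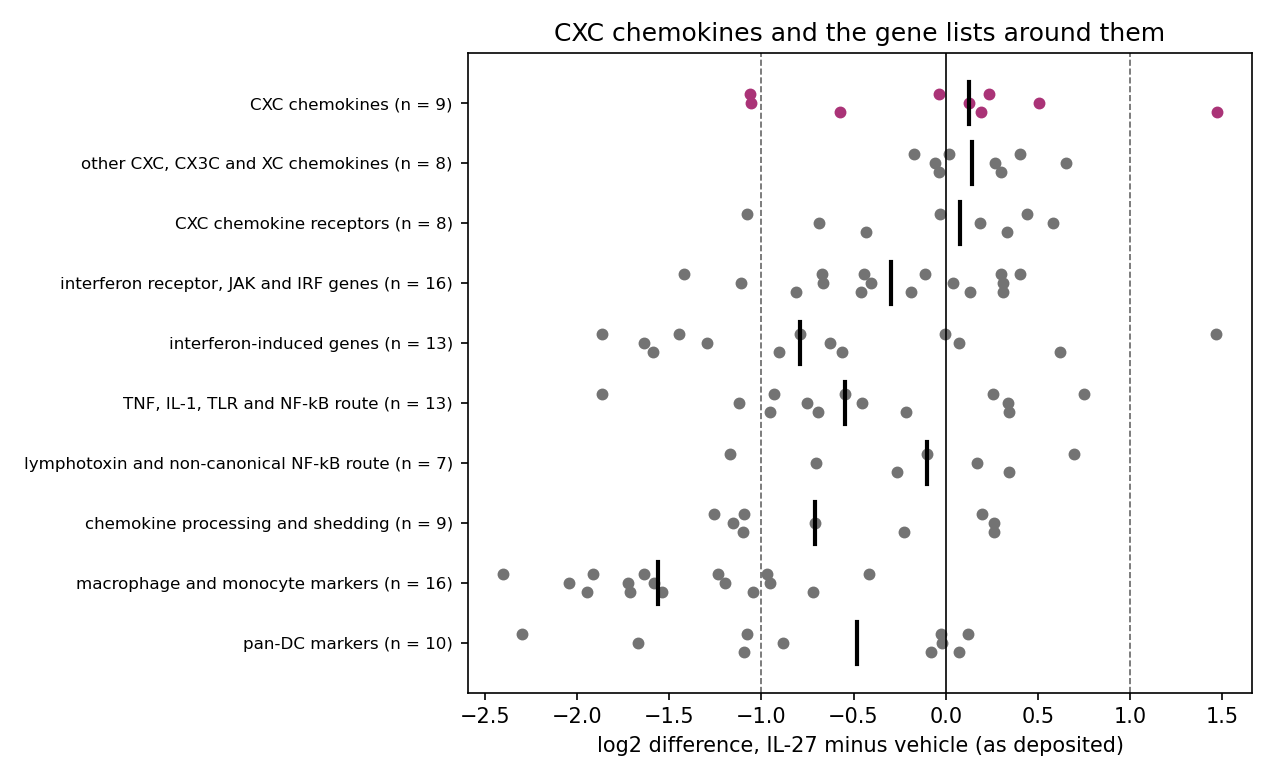
Log2 difference (IL-27 minus vehicle, as deposited) of each measured gene in the CXC chemokines and in 9 other gene lists, with the median of each list as a bar and dashed lines at a 2-fold difference. The CXC chemokines spread to both sides of 0, with a median of 0.13, whereas all macrophage and monocyte markers lie below 0.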

How the data were processed

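Total RNA of 2 samples was labelled with biotin with an Affymetrix kit and read on 1 array each, per the labels. The deposited table holds 1 linear intensity per probe set (28815 in all). Background correction, summarization and normalization by the authors are not stated in the labels, and the submitters' processing notes name the build mm8. The median intensity was 92.4 (vehicle) and 98.9 (IL-27), and precision is limited by having so few arrays.

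All values were above 0, and log2 was taken with no offset. GEO's platform annotation gave 21780 probe sets 1 gene, 1605 several and the other 5430 none here. A RefSeq gene ID was found for 21689 of the first kind (GRCm38.p6). The probe set with the highest mean log2 stood for a gene. A fold against a dim array was taken against its olfactory limit and is given as "at least". The level trend was a lowess fit (statsmodels 0.14.6, span 0.3) over all probe sets. Alternatives were quantile normalization, centring on the median or the 75th percentile, trend removal, an offset of 16, averaging the probe sets of a gene, other level filters and a 1.5-fold rule. The size rule was run on simulated data as a check of the code, which gives no error rate for these arrays. Named genes were all 9 members, up to 6 genes past the size rule per list, a fixed set of receptors, cytokines and regulators, and the 3 nearest genes of each called member. Chromosomal neighbours, Map3k14 and marker genes were named after their values were seen. The members and lists were chosen with earlier results of these data known.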

Additional observations from a re-analysis of the deposited data

How the results depend on the processing

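Of 54 member differences recomputed under 6 alternatives, 44 kept their sign and their side of 2-fold. With quantile normalization, 75th percentile centring and trend removal, Cxcl2 had -0.73, -0.75 and -0.62 and Cxcl13 had -0.74, -0.75 and -0.63, so the count past the size rule went from 3 to 1 and the lower count from 2 to 0 under each. Cxcl10, and with it the CXCR3 ligand median, turned from -0.04 to 0.24, 0.27 and 0.32 under the same 3. Cxcl3 was at -0.00089 with the trend removed. By the mean, the CXCR3 ligands had 0.29, the CXCR2 ligands -0.13 and all 9 members -0.02311. The cause was not tested. The other level filters, the 1.5-fold rule and the fold against the olfactory limit each left 3 members past the rule. The mean of probe sets changed nothing, since each member has 1. An offset of 16 left Cxcl2 and Cxcl13 just past 2-fold, at -1.001 and -1.007. No paired analysis was possible because each group has 1 array. Signal near the olfactory limit restricts the fold of Cxcl11 and leaves Cxcl3 and Cxcl5 without a level.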
